A study of Homo sapiens with 18 samples.

Results

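The comparison set the 3 arrays of SK-N-MC cells kept in 50 nM rotenone for 4 weeks (4w50 nM) directly against the 3 arrays of cells kept in 5 nM rotenone for the same 4 weeks (4w5 nM), 6 of the 18 arrays of the series, across 8585 genes and with no vehicle array in the test. SK-N-MC is an established human tumour line, which the labels call a neuroepithelioma and the study a neuroblastoma line, and rotenone is a plant-derived pesticide that blocks complex I of the mitochondrial respiratory chain and also keeps tubulin from forming microtubules. All groups were grown with glucose and without sodium pyruvate, which protects cells from complex I inhibitors, and the vehicle groups (4w0 nM and, after 1 week, 1w0 nM) received ethanol alone. The labels describe the 5 nM dose as non-lethal and the 50 nM dose as one that kills some of the cells. Of the 3 experiments, each gave 1 array per group, made from RNA of 5 pooled dishes, and the spread between these experiments is what the p-values measure. On pooled RNA, fewer cells of a kind and less RNA of a gene per cell cannot be told apart.

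A cell whose complex I is blocked passes fewer electrons from NADH into the respiratory chain, makes less ATP in its mitochondria, leaks more superoxide and leans on glycolysis. Lines of the neuroblastoma family hold cells of neuron-like (N) and of flat, substrate-adherent (S) character, and the S character is marked by matrix, contractile and calcium-binding S100 proteins. SK-N-MC carries the EWSR1-FLI1 fusion of Ewing tumours, a transcription factor that switches many developmental genes on and off.

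As a check of the cell type, all 25 Ewing sarcoma markers on the array were above the limit of detection used here (signals of 50 or more on 3 or more of the 6 arrays). Among them were NKX2-2 at a mean of 1305 in 4w50 nM and 1756 in 4w5 nM, and STEAP1 at 2895 and 3049. The list was chosen with earlier results of these data known, and no share of all genes above the limit is given beside it. Of 19 sympathoadrenal markers on the array, 8 stayed below 50 on all 6 arrays. These included the enzymes of catecholamine synthesis, TH (highest signal 19.9), DDC (5.77) and DBH (49.7), and the lineage factors PHOX2A (29.3) and HAND2 (8.52). The other 11 passed the limit, among them the lineage factors TFAP2B, at a mean of 1405 in 4w50 nM and 2304 in 4w5 nM, and GATA2, at 812 and 580. Of the macrophage markers 10 of 14, and of the lymphocyte markers 7 of 14, were below 50 on all 6 arrays, with CD14 at no more than 8.49 and CSF1R at no more than 30.7, whereas PTPRC, which is on both lists, reached 1567 and AIF1, on the macrophage list, 693.

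Of the 8585 genes, 713 were higher (8.31% of the genes tested) and 713 lower (8.31%) with 50 nM than with 5 nM at an adjusted p below 0.05 (limma), and the fold reached 2 for 206 of the higher and 282 of the lower genes. The chaperone gene HSPB8, the neurotrophic receptor gene GFRA2 and the transcription factor gene ZIC1 had the largest negative differences, and AIF1, a gene of an actin-bundling protein, the hypoxia-inducible factor gene EPAS1 and the matrix cross-linking enzyme gene LOXL1 were among the largest positive ones. The median difference over all genes was 0.01 on the log2 scale. Signals of the 2 groups did not overlap for 2948 genes (34.3%).

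**Figure D1:**
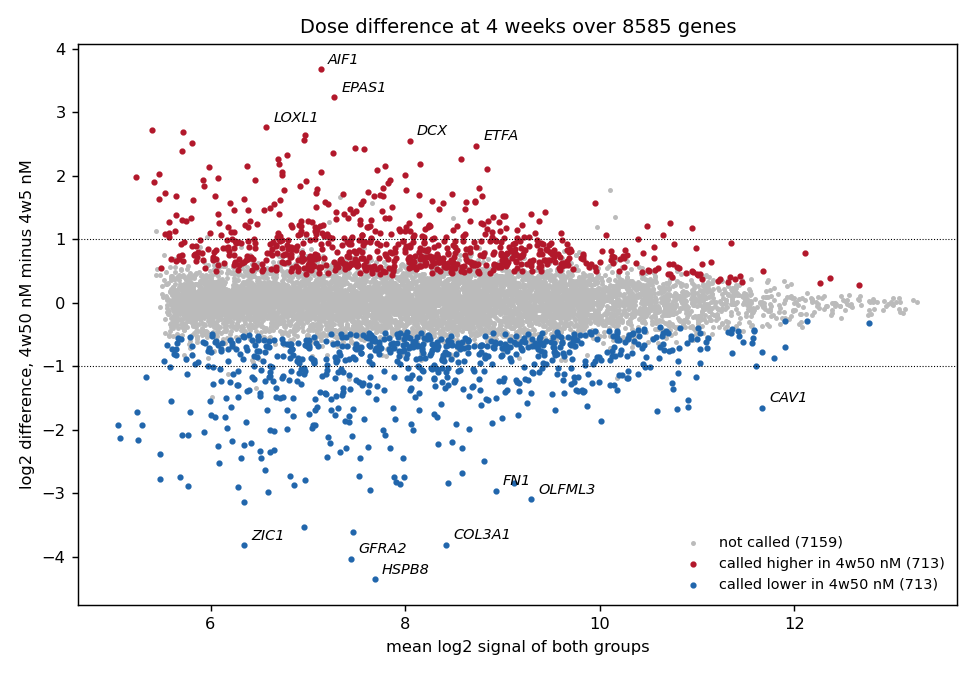
Log2 difference of 4w50 nM minus 4w5 nM (vertical) against the mean log2 signal of both groups (horizontal) for each of 8585 genes, with genes called at an adjusted p below 0.05 in colour and dotted lines at a 2-fold difference. The 713 higher and 713 lower genes spread over the whole range of signals, and the lower side reaches farther, to -4.36 for HSPB8.

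The count of called genes rests on how tightly the arrays of a group lie, and replicate 3 of 4w50 nM lay apart from the other two. Along the 2-fold genes called without it, a scale on which the mean of the 5 nM arrays is 0 and that of the remaining 50 nM arrays is 1, its median position was 0.70, with 122 of 581 genes nearer to 5 nM, while replicate 1 lay at 1.13 and replicate 2 at 1.07 when they were left out in the same way. For 944 of the 1426 called genes (66.2%) replicate 3 was the 50 nM array closest to the 5 nM group. Without it 797 genes were higher and 801 lower, and without replicate 1 of 4w50 nM the counts were 290 and 378. Replicate 3 of 4w5 nM stood apart from its group as well. When it was left out in the same way, 85 of 522 genes placed it nearer to 50 nM, compared with 25 of 519 for replicate 1 and 6 of 463 for replicate 2, and the lowest correlation within 4w5 nM was 0.964, with 0.973 the lowest within 4w50 nM. Its weight in an array-weighted fit was 0.24, below the 0.48 of replicate 3 of 4w50 nM, and without it 1120 genes were higher and 1045 lower. Counts of list members without this array, given below, stand beside these larger totals and not beside 8.31% in each direction. The array medians of the 6 arrays lay between 93.4 and 98.9, the hybridization controls averaged 8.93 on the log2 scale in 4w50 nM and 8.84 in 4w5 nM (two-sided exact permutation p = 0.6, where 0.1 is the smallest that 3 against 3 arrays allow), and the 3′ to 5′ log2 ratio of ACTB averaged 0.17 and 0.05 (exact permutation p = 0.1), with that of GAPDH at -0.03 and -0.09 (exact permutation p = 0.1). The part of these in the gene differences was not tested.

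The largest differences are shown beside the upstream sequence of the gene that led them and of the HLA class I genes, which lie in one cluster and moved together. Each run is the 250 bases before the start of the gene in RefSeq (GRCh38.p14), 5′ to 3′ along the gene. In HSPB8 (chr12:119178681-119178930, + strand) the capitals mark the match to GAANNTTC, the core of the heat shock element, 88 bases before the start. In HLA-B (chr6:31357180-31357429, - strand), HLA-C (chr6:31272093-31272342, - strand) and HLA-F (chr6:29723184-29723433, + strand) the capitals mark their longest shared run, which holds a CCAAT box.
HSPB8: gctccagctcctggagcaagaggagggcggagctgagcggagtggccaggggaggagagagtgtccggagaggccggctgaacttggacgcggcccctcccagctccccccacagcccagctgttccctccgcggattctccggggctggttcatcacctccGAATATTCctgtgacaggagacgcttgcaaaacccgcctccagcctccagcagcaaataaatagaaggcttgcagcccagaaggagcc
HLA-B: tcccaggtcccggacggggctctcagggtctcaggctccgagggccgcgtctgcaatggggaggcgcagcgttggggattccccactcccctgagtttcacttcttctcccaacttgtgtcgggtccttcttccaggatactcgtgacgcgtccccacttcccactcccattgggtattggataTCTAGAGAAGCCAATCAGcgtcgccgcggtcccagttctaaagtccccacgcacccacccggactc
HLA-C: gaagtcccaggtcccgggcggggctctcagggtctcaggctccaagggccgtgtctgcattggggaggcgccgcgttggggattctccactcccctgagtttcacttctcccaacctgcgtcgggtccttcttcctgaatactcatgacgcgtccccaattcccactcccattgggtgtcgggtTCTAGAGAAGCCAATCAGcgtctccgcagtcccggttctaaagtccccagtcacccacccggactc
HLA-F: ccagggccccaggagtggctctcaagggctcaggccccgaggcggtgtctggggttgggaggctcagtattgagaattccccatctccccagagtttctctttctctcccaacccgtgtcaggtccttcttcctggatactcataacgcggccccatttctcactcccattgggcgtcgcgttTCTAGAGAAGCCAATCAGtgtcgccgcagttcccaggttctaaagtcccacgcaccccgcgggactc
The motif GAANNTTC, which reads the same on both strands, was found in 5.85% of 27305 upstream runs of this length, in 4.03% of the 7067 runs of genes tested, in 3.13% of the runs of genes called higher and in 3.46% of those called lower. The shared run of 18 bases was found in 3 of the 27305 runs, those of these 3 genes. It was picked as the longest run that these 3 share, so its rarity elsewhere is no separate result. HLA-G, which was also called higher, was not among the genes compared. CCAAT was found on either strand in 35.5% of runs of higher genes, 36.9% of runs of lower genes and 35.9% of runs of genes tested. A match is a description of the letters, not of a site in use.

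HSPB8, a small heat shock protein that hands misfolded proteins to autophagy, had signals of 29.1, 17.9 and 112 in 4w50 nM, against 755, 703 and 946 in 4w5 nM. The groups lay far apart, at 20.5-fold (log2 difference -4.36, SE 0.53, adjusted p = 0.000632), and replicate 3 of 4w50 nM was the highest of its group. The vehicle mean of 386 ± 39.6 (SD, n = 3) lay between the 2 doses. GFRA2, the receptor subunit that binds neurturin, had 26.1, 18.1 and 105 in 4w50 nM, against 504, 591 and 732 in 4w5 nM (-4.03, SE 0.52, adjusted p = 0.000845), and its other probe set differed by -3.46. ZIC1, a zinc finger factor of neural crest and dorsal neural tube, had 18.0, 5.33 and 38.2 in 4w50 nM, against 297, 242 and 431 in 4w5 nM. Since any value under 16 was raised to 16 ahead of the log2, its 14.1-fold difference is a lower bound (-3.82, SE 0.32, adjusted p = 0.000152).

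TNFAIP6, a secreted protein that modifies hyaluronan, had 31.1, 36.7 and 91.3 in 4w50 nM, against 690, 621 and 444 in 4w5 nM (-3.61, SE 0.35, adjusted p = 0.000222). OLFML3, a secreted scaffold protein of the matrix, had 124, 142 and 436 in 4w50 nM, against 1589, 1822 and 1642 in 4w5 nM (-3.09, SE 0.39, adjusted p = 0.000794), with the vehicle arrays at 1462 ± 123 (SD, n = 3), near the 5 nM side. The remaining genes among the 12 with the largest negative differences were RPL39L, a ribosomal protein paralogue, EPM2AIP1, FXYD6, a regulator of the sodium pump, RTN1, a reticulon of the endoplasmic reticulum in neurons, and L1TD1, an RNA-binding protein of embryonic cells, together with COL3A1 and FN1 below. In all 12, replicate 3 of 4w50 nM was the 50 nM array nearest to 5 nM, and for 11 of the 12 the vehicle mean lay between the doses.

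AIF1, a calcium-binding protein that bundles actin and is best known from macrophages, had 553, 693 and 286 in 4w50 nM, against 52.1, 30.3 and 33.7 in 4w5 nM (12.7-fold, 3.67, SE 0.31, adjusted p = 0.000155). No array of one group reached the other, the vehicle mean was 80.1 ± 22.3 (SD, n = 3), and the 3 other probe sets of AIF1 were higher by 0.43 to 4.37 on the log2 scale. EPAS1, the oxygen-regulated subunit HIF-2alpha, had 612, 494 and 294 in 4w50 nM, against 62.0, 26.8 and 64.7 in 4w5 nM (3.23, SE 0.36, adjusted p = 0.000381). LOXL1, which cross-links elastin, had 274, 231 and 235 in 4w50 nM, against 46.5, 30.6 and 33.3 in 4w5 nM (2.76, SE 0.18, adjusted p = 6.01e-05), and the vehicle mean of 248 ± 9.89 (SD, n = 3) lay on the 50 nM side. ETFA, the electron transfer flavoprotein that feeds electrons from fatty acid oxidation into the respiratory chain, had 962, 1025 and 922 in 4w50 nM, against 269, 178 and 112 in 4w5 nM (2.47, SE 0.27, adjusted p = 0.000374).

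A pair of homeobox genes stood among the 12 with the largest positive differences. MEOX1, a factor of the somites, had 129, 100 and 102 in 4w50 nM, against 18.1, 13.7 and 14.0 in 4w5 nM, so its 6.59-fold difference is a lower bound (2.72, SE 0.17, adjusted p = 6.01e-05), and MNX1, a motor neuron factor, had 155, 119 and 127 against 17.6, 22.3 and 22.4 (2.69, SE 0.18, adjusted p = 6.01e-05). DCX, which binds microtubules in migrating neurons, had 583, 657 and 604 in 4w50 nM, against 177, 98.3 and 66.1 in 4w5 nM (2.55, SE 0.30, adjusted p = 0.000509). PRSS21, a membrane-anchored serine protease, CHRDL1, an antagonist of bone morphogenetic proteins, LAMP5, a lysosomal membrane protein of neurons, DUSP2, a phosphatase of MAP kinases, and THBS2, a thrombospondin of the matrix, completed the 12, with differences of 2.64, 2.56, 2.51, 2.43 and 2.42. For 11 of the 12 the vehicle mean lay between the doses.

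**Figure D2:**
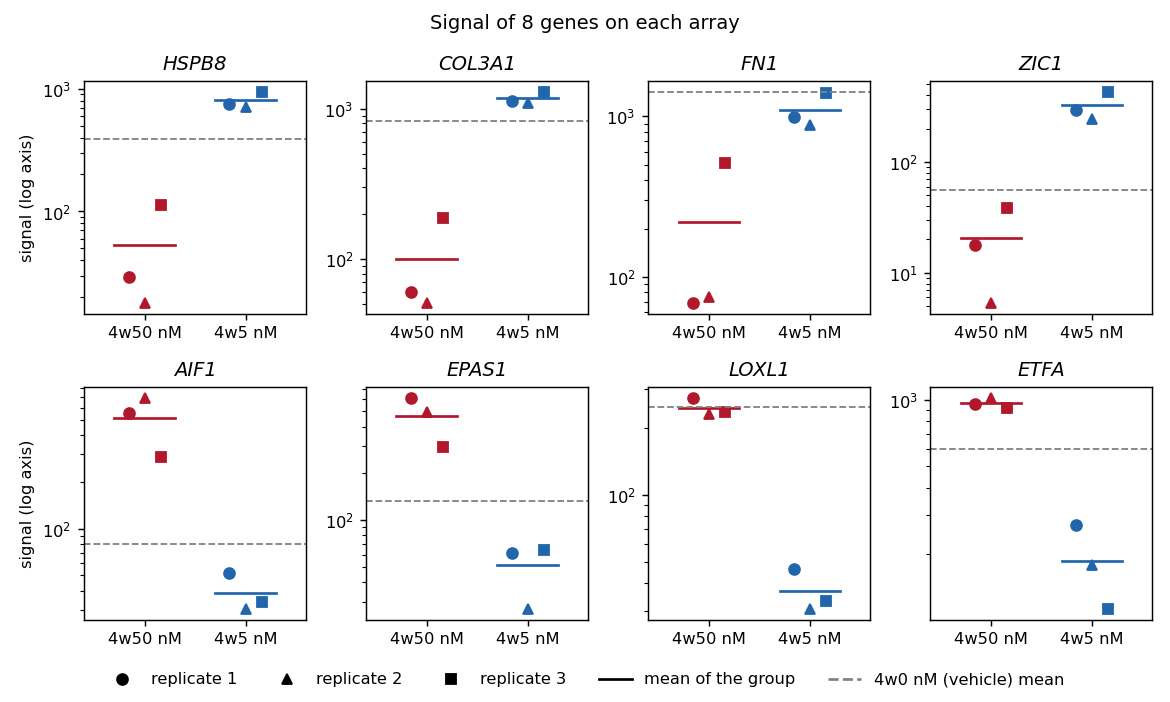
Signal of 8 genes on each array (logarithmic vertical axis) in 4w50 nM and 4w5 nM, with a symbol for each replicate, a line at the group mean and a dashed line at the mean of the 4-week vehicle arrays. HSPB8, COL3A1, FN1 and ZIC1 were lower in all 3 of the 50 nM arrays and AIF1, EPAS1, LOXL1 and ETFA higher, and the square of replicate 3 of 4w50 nM stands nearest to 5 nM in 7 of the 8 panels.

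Collagens and other matrix genes were called in both directions, 9 higher and 11 lower of 46 tested, beside 8.31% of all genes in each. The fibrillar collagen gene COL3A1 had 60.1, 51.0 and 188 in 4w50 nM, against 1125, 1098 and 1297 in 4w5 nM (-3.81, SE 0.40, adjusted p = 0.000332), and its 2 other probe sets differed by -4.32 and -3.96. FN1, the gene of the adhesive matrix protein fibronectin, had 68.6, 74.4 and 514 in 4w50 nM, against 991, 889 and 1397 in 4w5 nM (-2.96, SE 0.63, adjusted p = 0.0118). Its replicate 3 array at 50 nM was far above the other 50 nM arrays, and the call was lost without either of those. LUM, a proteoglycan that spaces collagen fibrils, had 69.7, 67.7 and 75.2 in 4w50 nM, against 419, 385 and 293 in 4w5 nM (-2.35, SE 0.16, adjusted p = 6.01e-05), and LOX, the enzyme that cross-links collagen, was lower by -1.61. In the other direction, COL6A3, a chain of the beaded-filament collagen, had 212, 171 and 266 in 4w50 nM, against 67.0, 37.6 and 52.8 in 4w5 nM (2.06, SE 0.23, adjusted p = 0.000445), and COL1A2, a chain of the main bone and skin collagen, had 2884, 2579 and 2305 against 1120, 874 and 1297 (1.25, SE 0.16, adjusted p = 0.000819). The vehicle means of COL6A3 (387) and COL1A2 (3142) lay above both doses. Of 12 fibroblast markers tested 4 were higher and 5 lower, and the list's summed signal lay between 4906 and 5366 in 4w50 nM and between 4944 and 5657 in 4w5 nM.

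Among adhesion molecules 4 were higher and 6 lower of 30 tested, beside 8.31% of all genes in each direction. VCAM1, a receptor for leukocyte integrins, had 42.3, 28.2 and 64.3 in 4w50 nM, against 297, 265 and 288 in 4w5 nM (-2.74, SE 0.26, adjusted p = 0.000204), while ITGA4, a subunit of its integrin partner, had 120, 98.5 and 122 against 42.6, 22.8 and 32.5 (1.84, SE 0.23, adjusted p = 0.000715). NCAM2 and ALCAM, adhesion molecules of axons, were lower by at least 7.37-fold and by 2.45-fold, and the cadherin gene CDH12 was 2.55-fold higher. The receptor-type phosphatase PTPRC (CD45), the common marker of blood cells, had 198, 164 and 267 in 4w50 nM, against 1338, 1544 and 1567 in 4w5 nM (-2.85, SE 0.19, adjusted p = 6.01e-05), and its vehicle mean was 417. The summed signal of the 14 macrophage markers was 859 to 1173 in 4w50 nM and 1710 to 1902 in 4w5 nM. PTPRC itself made up most of the 5 nM sum, and the other 13 markers, AIF1 included, summed to 591 to 1009 in 4w50 nM and 316 to 372 in 4w5 nM.

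Markers of the S character were called lower 11 times and higher 8 times among 27 tested, beside 8.31% of all genes in each direction. The median of these markers was -0.44. Those called lower included YAP1, a growth-promoting coactivator of the Hippo pathway (25.0, 22.9 and 37.6 in 4w50 nM, against 145, 135 and 209 in 4w5 nM), TWIST1, a mesenchymal transcription factor (438, 449 and 770, against 1958, 2014 and 1872), and CAV1, the coat protein of caveolae (1442, 1146 and 3208, against 5777, 5288 and 5433). The groups did not overlap for any of these 3 genes, whose differences were -2.52, -1.87 and -1.66 (adjusted p = 0.000196, 0.000395 and 0.00516). S100A11, a calcium-binding protein, was among the 8 called higher, with 500, 524 and 457 in 4w50 nM, against 190, 132 and 73.6 in 4w5 nM (2.00, SE 0.29, adjusted p = 0.0015). Its vehicle mean of 743 lay above both doses. The means of S100A6 (98.4 against 32.3), S100B, S100A4, VIM, LGALS1 and TPM2 (719 against 296) were also higher with 50 nM, while S100A10 was level (300 against 303). Relative to the vehicle arrays, the list's median was -0.56, -0.52 and -0.53 on the 50 nM arrays and -0.17, -0.23 and -0.10 on the 5 nM arrays. Of 28 neuronal and N-type markers tested 3 were higher and 1 lower, beside 8.31% of all genes in each direction. They were led by NRXN2, a presynaptic adhesion protein, which was 2.61-fold higher.

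Of 25 Ewing sarcoma markers tested 9 were lower and 1 higher, beside 8.31% of all genes in each direction. The median of the list was -0.16. ID2, an inhibitor of differentiation factors and a target of the fusion protein in Ewing cells, had 843, 884 and 1752 in 4w50 nM, against 3044, 3265 and 3229 in 4w5 nM (-1.54, SE 0.24, adjusted p = 0.0025). FCGRT, the receptor that recycles antibodies and albumin, had 815, 829 and 1727 in 4w50 nM, against 2981, 3174 and 3708 in 4w5 nM (-1.64, SE 0.26, adjusted p = 0.00251), with the vehicle arrays at 3272 ± 143 (SD, n = 3). For both genes replicate 3 of 4w50 nM lay between the other 50 nM arrays and the 5 nM arrays. HOXD10, a limb and trunk homeobox factor, was 2.38-fold lower, and DKK2, a modulator of WNT receptors, was 2.29-fold higher.

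Homeobox and other developmental factors were called lower 12 times and higher 6 times among 37 tested, beside 8.31% of all genes in each direction. TBX3, a T-box repressor that holds back senescence, had 75.5, 60.7 and 104 in 4w50 nM, against 350, 438 and 502 in 4w5 nM (-2.45, SE 0.21, adjusted p = 0.000164). DLX2, a factor of forebrain interneurons, had 706, 684 and 535 in 4w50 nM, against 268, 175 and 159 in 4w5 nM (1.71, SE 0.21, adjusted p = 0.000768). In the NOTCH pathway 4 of 14 genes tested were higher and 0 lower, where 1 lower was called without replicate 3 of 4w50 nM. They were the ligand JAG2 (1033, 713 and 687 in 4w50 nM, against 276, 214 and 203 in 4w5 nM), the non-canonical ligand DLK1, the gamma-secretase subunit PSEN2 and the inhibitory ligand DLL3, at 3.49-fold, 2.74-fold, 2.00-fold and 1.61-fold, and the call of DLL3 was lost without replicate 1 or 2 of 4w50 nM or replicate 1 of 4w5 nM. WNT genes were called higher 3 times and lower 5 times among 29, with the frizzled receptors FZD1 and FZD3 lower by -1.31 and -1.21. Of the TGF-beta and BMP genes 4 were higher and 5 lower among 44, with the ligand TGFB3 at 63.3, 65.2 and 130 in 4w50 nM, against 286, 279 and 271 in 4w5 nM (-1.78, SE 0.25, adjusted p = 0.0014). Growth factor and insulin signalling genes were called higher 5 times and lower 6 times among 47, with the receptor tyrosine kinase MET 2.78-fold lower and FGFR3, a receptor of fibroblast growth factors, 2.32-fold higher. The counts of the WNT, TGF-beta and BMP, and growth factor lists lay nearer to the share over all genes than those of the homeobox list.

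**Figure D3:**
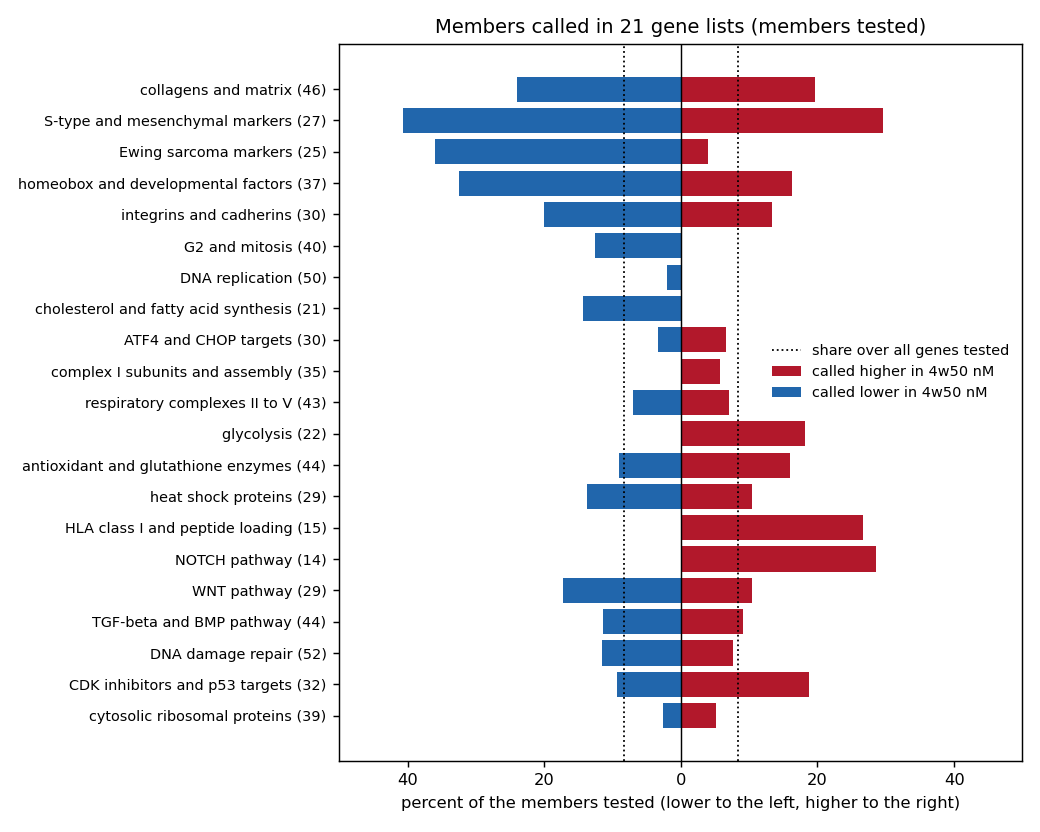
Percent of the members tested in each of 21 gene lists that were called higher (right) or lower (left) with 50 nM than with 5 nM, with the number tested in brackets and dotted lines at 8.31%, the share over all genes in each direction. The S-type markers reach far past the lines on both sides, with 11 lower and 8 higher of 27, and the genes of DNA replication stay at 1 of 50.

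The genes of complex I, the target of rotenone, were called higher for 2 of 35 tested and lower for 0, beside 8.31% of all genes in each direction, with a median of 0.07. NDUFS1, the iron-sulphur subunit that takes part in NADH oxidation, had 1081, 1024 and 857 in 4w50 nM, against 702, 622 and 480 in 4w5 nM (0.73, SE 0.17, adjusted p = 0.0198), and the assembly factor NDUFAF3 was higher by 1.04 (adjusted p = 0.0133). Both calls were lost without replicate 1 or replicate 2 of 4w50 nM. Without replicate 3 of 4w5 nM 9 genes of complex I were called, beside 1120 higher and 1045 lower of all 8585 genes. In complexes II to V 3 genes were higher and 3 lower among 43. Of 22 glycolysis genes 4 were higher and 0 lower, where 3 were called lower without replicate 3 of 4w50 nM. SLC2A3, the high-affinity neuronal glucose transporter, had 146, 120 and 227 in 4w50 nM, against 42.9, 53.1 and 78.0 in 4w5 nM (1.49, SE 0.27, adjusted p = 0.00511), and PDK1, the kinase that shuts off pyruvate dehydrogenase, was 2.09-fold higher, HK1 2.08-fold and GPI 1.72-fold. Among 20 hypoxia genes 3 were higher and 2 lower (7 lower without replicate 3 of 4w50 nM), and VEGFA, the vascular growth factor, had 2208, 1840 and 1634 in 4w50 nM, against 1000, 961 and 1627 in 4w5 nM (0.69, SE 0.21, adjusted p = 0.0463), a call lost without any one of replicates 1 and 2 of either group.

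Antioxidant and glutathione genes were called higher 7 times and lower 4 times among 44, beside 8.31% of all genes in each direction. The selenium-binding protein SELENBP1 had 210, 216 and 250 in 4w50 nM, against 56.1, 48.3 and 38.4 in 4w5 nM (2.26, SE 0.17, adjusted p = 0.000101), the metallothionein MT2A had 901, 891 and 720 against 325, 278 and 369 (1.37, SE 0.16, adjusted p = 0.000598), and HMOX1, the inducible haem oxygenase, had 153, 148 and 232 against 89.3, 77.5 and 79.7 (1.09, SE 0.19, adjusted p = 0.00402) with a vehicle mean of 431 above both. GSR, which restores reduced glutathione and lies on chromosome 8, had 345, 284 and 376 in 4w50 nM, against 853, 718 and 781 in 4w5 nM (-1.23, SE 0.16, adjusted p = 0.000819). Heat shock proteins were called higher 3 times and lower 4 times among 29 (14 called without replicate 3 of 4w5 nM), with HSPB8 far below the others and HSF1, the master regulator of the response and also on chromosome 8, at -1.01.

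The targets of ATF4 and CHOP, the factors of the integrated stress response, stood above vehicle on all 6 arrays, at medians of 0.74, 0.66 and 0.44 on the 50 nM arrays and 0.23, 0.33 and 0.92 on the 5 nM arrays, and 2 of 30 were called higher and 1 lower (11 called without replicate 3 of 4w5 nM). DDIT3, which encodes CHOP, had 1884, 1971 and 540 in 4w50 nM, against 318, 385 and 1371 in 4w5 nM, so that its groups overlapped (1.19, SE 0.59, adjusted p = 0.212). Genes of cholesterol and fatty acid synthesis stood at -0.50, -0.60 and -0.40 relative to vehicle on the 50 nM arrays and at 0.42, 0.36 and -0.58 on the 5 nM arrays, and 3 of 21 were called lower and 0 higher, with a list median of -0.43. Without replicate 3 of 4w5 nM 17 of the 21 were called, and without replicate 3 of 4w50 nM 1 was. Of all 8585 genes 8.31% were called in each direction, and without replicate 3 of 4w5 nM 1120 were higher and 1045 lower. Squalene epoxidase SQLE, which also lies on chromosome 8, had 926, 961 and 1174 in 4w50 nM, against 2417, 2354 and 1528 in 4w5 nM (-1.02, SE 0.19, adjusted p = 0.00561).

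Of 40 genes of the G2 phase and mitosis 5 were lower and 0 higher, with a median of -0.29, and 16 were lower without replicate 3 of 4w50 nM and 14 called without replicate 3 of 4w5 nM. CCNB1, the cyclin that starts mitosis, had 458, 451 and 726 in 4w50 nM, against 1550, 1658 and 1054 in 4w5 nM (-1.39, SE 0.23, adjusted p = 0.00315). Relative to vehicle the list stood at -0.41, -0.40 and 0.13 on the 50 nM arrays and at 0.19, 0.28 and -0.12 on the 5 nM arrays, so that replicate 3 of each group lay on the other group's side. Of 50 DNA replication genes 1 was lower (6 without replicate 3 of 4w50 nM, and 9 called without that of 4w5 nM). Without the latter array 1120 of all 8585 genes were higher and 1045 lower. Inhibitors of the cell cycle and p53 targets were called higher 6 times and lower 3 times among 32, with GADD45A, a stress-induced brake of the cycle, at 360, 345 and 172 in 4w50 nM, against 84.0, 63.3 and 56.5 in 4w5 nM (2.05, SE 0.28, adjusted p = 0.00109). DNA repair genes were called higher 4 times and lower 6 times among 52, and ribosomal protein genes higher 2 times and lower once among 39. Of all genes 8.31% were called in each direction.

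Genes of the microtubule system, the second target of rotenone, were called in both directions, beside 8.31% of all genes in each. Of 51 tubulin, kinesin and dynein genes 3 were higher and 3 lower (4 and 6 without replicate 3 of 4w50 nM, and 15 called without that of 4w5 nM), and KIF1B, a motor that carries vesicles and mitochondria along axons, had 855, 681 and 573 in 4w50 nM, against 338, 290 and 343 in 4w5 nM (1.10, SE 0.18, adjusted p = 0.00264). The tubulin gene TUBB6 had 720, 698 and 1257 in 4w50 nM, against 2402, 2612 and 1057 in 4w5 nM, so that its groups overlapped through the replicate 3 arrays, and its call (-1.13, SE 0.34, adjusted p = 0.0477) was lost without any one of the other 4 arrays and under either scaling. Of 31 microtubule-associated proteins 3 were higher, DCX among them, and 4 lower (12 called without replicate 3 of 4w5 nM). Without that array 1120 of all 8585 genes were higher and 1045 lower. DPYSL3, a collapsin response mediator of growing axons, had 154, 91.3 and 296 in 4w50 nM, against 662, 639 and 1138 in 4w5 nM (-2.28, SE 0.38, adjusted p = 0.00328), and its relative DPYSL2, on chromosome 8, had 1070, 926 and 1247 against 2772, 2521 and 2965 (-1.36, SE 0.14, adjusted p = 0.000258). STMN4, a stathmin that binds free tubulin and also lies on chromosome 8, had 293, 272 and 432 in 4w50 nM, against 119, 97.3 and 108 in 4w5 nM (1.60, SE 0.19, adjusted p = 0.000589), with a vehicle mean of 533 above both.

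Genes of cell death were called in both directions, and the Parkinson disease list gave 1 call each way, beside 8.31% of all genes in each direction. Of 33 BCL2 family, caspase and death receptor genes 2 were higher and 3 lower (5 lower without replicate 3 of 4w50 nM). The initiator caspase genes CASP10 and CASP8, which are neighbours on chromosome 2, were 2.45-fold and 1.64-fold higher, and both calls were lost when all probe sets of a gene were averaged. BIRC2, an inhibitor of apoptosis, had 600, 566 and 522 in 4w50 nM, against 974, 1054 and 946 in 4w5 nM (-0.82, SE 0.13, adjusted p = 0.00304). The only higher call among 15 genes of the Parkinson disease list was SYNJ2, a relative of the disease gene SYNJ1. The only lower call was DNAJC6, a chaperone that strips clathrin from vesicles, which had 218, 183 and 189 in 4w50 nM, against 355, 335 and 340 in 4w5 nM (-0.81, SE 0.14, adjusted p = 0.00367). Without replicate 3 of 4w5 nM 5 of the list were called, beside 1120 higher and 1045 lower of all 8585 genes. Of 27 interferon response genes 3 were higher and 1 lower (6 and 2 without replicate 3 of 4w50 nM), and the 2 receptor chains for interferon gamma went opposite ways, with IFNGR1 1.70-fold higher and IFNGR2 1.63-fold lower.

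In antigen presentation 4 of 15 genes tested were higher and 0 lower, beside 8.31% of all genes in each direction. Without replicate 3 of 4w5 nM 7 of the list were called, beside 1120 higher and 1045 lower of all 8585 genes. HLA-B had 940, 953 and 860 in 4w50 nM, against 395, 459 and 546 in 4w5 nM (0.99, SE 0.16, adjusted p = 0.00264), HLA-C had 1121, 1139 and 1092 against 599, 539 and 640 (0.92, SE 0.13, adjusted p = 0.00153), HLA-F had 909, 940 and 946 against 427, 464 and 578 (0.94, SE 0.15, adjusted p = 0.00289), and HLA-G was higher by 0.76. All 4 lie in the first 400 genes of chromosome 6 (DUSP22 to MYB), of which 96 were higher. These heavy chains present peptides to T cells, and their genes are so alike that the array's probes may pick up one another's transcripts. The vehicle means of HLA-B (2103) and HLA-F (1976) were above both doses. B2M, the light chain, which lies on chromosome 15, had 3957, 3941 and 3782 in 4w50 nM, against 4213, 4038 and 4482 in 4w5 nM (-0.12, SE 0.08, adjusted p = 0.363).

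The called genes were not spread evenly over the genome. In runs of 20 neighbouring genes, 47 of 416 runs had a median past 0.3 in either direction, 23 higher and 24 lower, and 40 of the 47 lay on chromosomes 3, 6 and 8. The first 11 runs of chromosome 3 (CRBN to GPR27) held 220 genes, of which 120 were higher and 4 lower, with a median of 0.57. The next 200 genes on it (RYBP to TNIK) held 14 higher and 27 lower, and its last 60 (PLD1 to LSG1) 1 higher and 25 lower, with a median of -0.52. On chromosome 8 the first 100 genes (ERICH1 to EIF4EBP1) held 67 lower and 1 higher at a median of -0.89, and the remaining 232 held 101 lower and 7 higher at -0.48. Of the first 400 genes of chromosome 6 (DUSP22 to MYB) 96 were higher and 10 lower, with a median of 0.31. A stretch of 60 genes of chromosome 11 (SLN to SC5D) held 25 lower and 0 higher, whereas the other 454 genes of that chromosome held 25 higher and 24 lower. These stretches were picked after the values were seen, and the DNA copy number of the cells was not analysed here.

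Relative to vehicle, the median of the 332 chromosome 8 genes was -0.22, -0.21 and -0.20 on the 50 nM arrays and 0.35, 0.36 and 0.49 on the 5 nM arrays, so the 2 doses lay on opposite sides. The first 220 genes of chromosome 3 stood at 0.35, 0.29 and 0.18 on the 50 nM arrays and at -0.17, -0.28 and -0.20 on the 5 nM arrays, whereas the 400 genes of chromosome 6 stood at 0.28, 0.27 and 0.21 on the 50 nM arrays and close to vehicle, at 0.01, -0.05 and 0.01, on the 5 nM arrays. At 1 week the dose difference of the same stretches had medians of -0.16 on chromosome 8, -0.07 on the first part of chromosome 3 and -0.09 on chromosome 6. The stretches of chromosome 6, chromosome 8, chromosome 11 and both ends of chromosome 3 held 457 of the 1426 called genes and 1072 of the 8585 genes tested. With chromosomes 3, 6 and 8 left out entirely, 458 genes were higher and 468 lower of 7286.

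**Figure D4:**
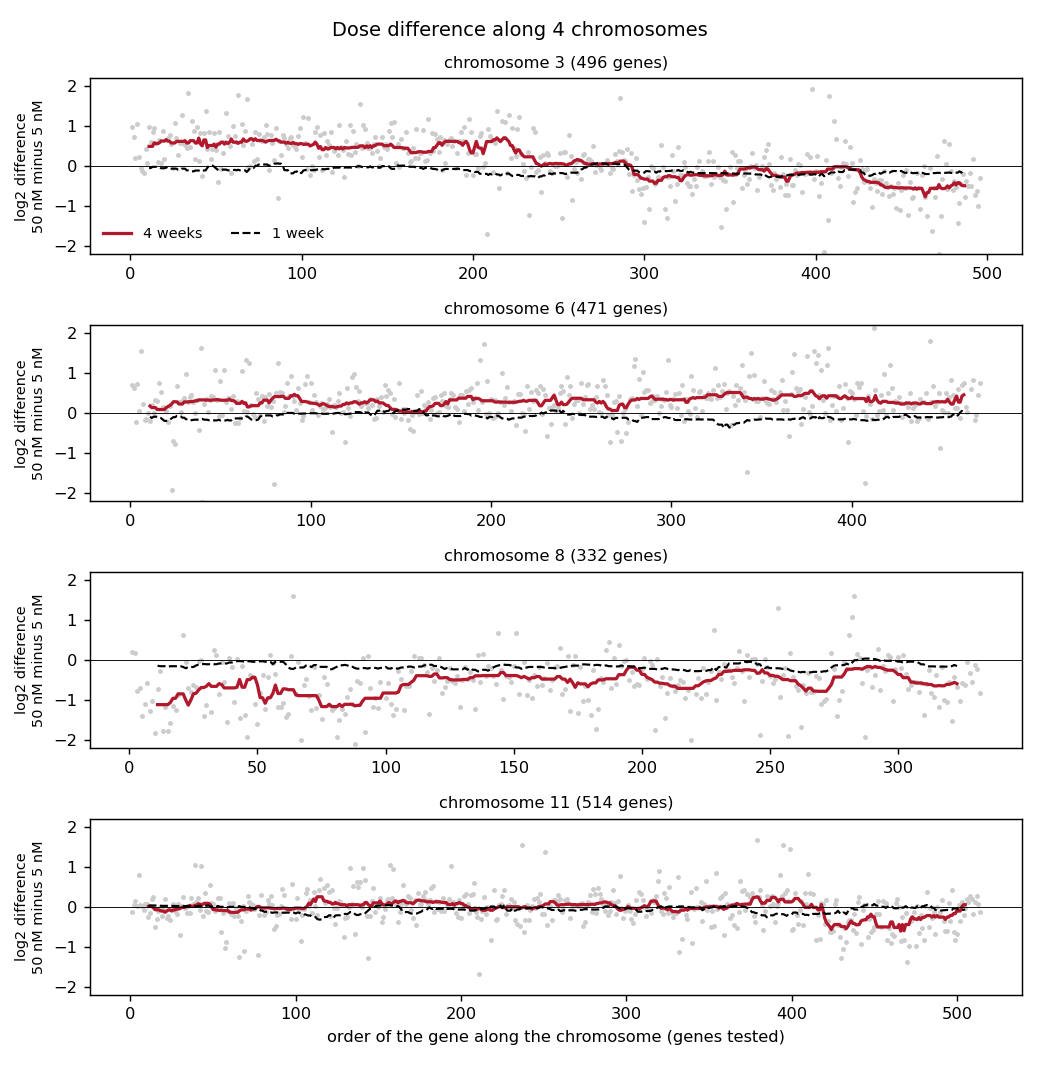
Log2 difference of 50 nM minus 5 nM for the genes tested on 4 chromosomes, in their order along the chromosome, with grey points for single genes at 4 weeks, a solid line for the running median at 4 weeks and a dashed line for that at 1 week. Points beyond the vertical axis are not drawn, and the solid line stays above 0 over the first 220 genes of chromosome 3 and below 0 over most of chromosome 8 while the dashed line keeps near 0.

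The same measure on 6 other arrays, 50 nM against 5 nM after 1 week, gave 11 genes higher (0.128%) and 211 lower (2.46%) among the same 8585. That count hung on single arrays and on scaling: 0 higher and 0 lower were called without replicate 3 of 1w5 nM or replicate 1 of 1w50 nM, 1 and 0 without replicate 2 of 1w5 nM, 0 and 1 without replicate 2 of 1w50 nM, and 34 and 558 without replicate 3 of 1w50 nM, and quantile normalization left 0 higher and 5 lower. Of the 206 genes at least 2-fold higher with 50 nM at 4 weeks, 59 had the same sign at 1 week and 1 was called, with 5 called the opposite way. Of the 282 at least 2-fold lower, 256 had the same sign and 10 were called, beside a median 1-week difference of -0.10 over all genes. The 4-week and 1-week differences correlated at 0.09 over the 8585 genes, and genes do not count as independent replicates.

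The dose difference itself differed between the times for 1317 genes (15.3%), being higher at 4 weeks for 936 and lower for 381 (limma, adjusted p below 0.05). Under quantile normalization the split was 681 and 500, and under median scaling 661 and 472. Among the genes at least 2-fold different at 4 weeks, 198 of 206 and 232 of 282 were called in this test. These genes were picked by the 4-week difference that the test itself contains, so their calls are no separate evidence of a change with time. HSPB8 differed by -4.36 between the doses at 4 weeks and COL3A1 by -3.81, against -0.06 and -0.26 at 1 week.

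The vehicle arrays of 4 weeks took no part in the test. The vehicle mean lay between the 2 dose means for 131 of the 206 higher genes and for 226 of the 282 lower genes. It lay at or past the 50 nM mean for 20 and 17 of them, and at or past the 5 nM mean for 55 and 39. Their choice by a gap of at least 2-fold between the doses makes a vehicle mean inside that gap likely. No share over all 8585 genes is given for comparison. The counts, and those of 11 of 12 above, therefore cannot show that the doses moved in opposite directions from vehicle.

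The genes that separated the doses at 4 weeks also separated the 3 vehicle arrays of 1 week, which had no rotenone. HSPB8 had 363, 598 and 9.24 on the 3 arrays of 1w0 nM, COL3A1 had 774, 1248 and 43.9, and AIF1 had 223, 95.9 and 737, so that replicate 3 resembled 4w50 nM in these genes. Replicate 3 minus replicate 2 of 1w0 nM had the same sign as the 4-week dose difference for 485 of the 488 genes at least 2-fold different, with medians of 1.07 over the higher and -1.97 over the lower genes, and over all 8585 genes the correlation was 0.77. Relative to the mean of 1w0 nM, the chromosome 8 genes stood at a median of 0.12, 0.40 and -0.50 on its replicates 1 to 3, and the first 220 genes of chromosome 3 at 0.0044, -0.21 and 0.22. The arrays of 4w0 nM, 1w5 nM and 1w50 nM, each taken relative to the mean of its own group, correlated with the 4-week dose difference at -0.21 to 0.23, and the 3 arrays of 1w0 nM at -0.36, -0.76 and 0.74 on the same measure. Arrays of 1w0 nM correlated with one another at 0.91 to 0.98 and those of 4w0 nM at 0.99. Whether one source of variation lies behind both was not tested.

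**Figure D5:**
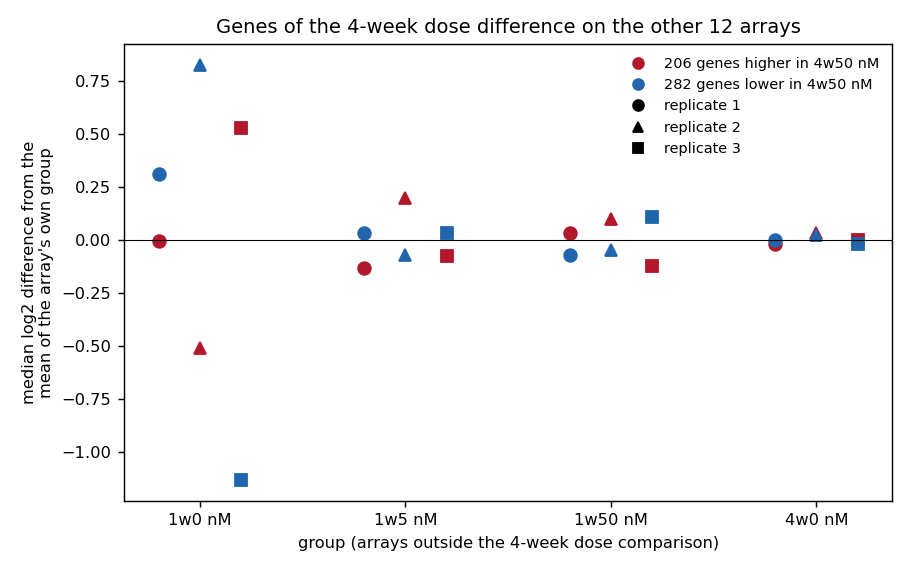
Median log2 difference from the mean of the array's own group, over the 206 genes higher (red) and the 282 genes lower (blue) at least 2-fold in 4w50 nM, for each of the 12 arrays that took no part in the 4-week dose comparison. Replicates 2 and 3 of 1w0 nM stand apart in opposite directions, at -0.51 and 0.53 for the higher genes and 0.83 and -1.13 for the lower genes, and the 9 arrays of the other groups stay within 0.20 of 0.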

How the data were processed

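SK-N-MC cells were profiled on 18 Affymetrix human arrays of the U133 design, 3 in each of 6 groups, of which 6 entered the 4-week dose comparison. The deposited intensities are linear signals, normalized between arrays by the authors and summarized per probe set as model-based expression indexes in dChip (range 0.46 to 11258.4); the normalization method and version are not given in the sources used here. A signal this far processed can carry the array scaling into small differences shared by many genes. Of 22283 probe sets, 68 were controls, 19065 had 1 gene symbol, 1043 several and 2107 none. Values below 16 were set to 16, log2 was taken, and genes at 50 or more on 3 or more of the 6 arrays were kept, using for each the single-gene probe set of highest mean log2. For 494 called genes another probe set also passed, and 694 of 727 such probe sets had the same sign. The number of arrays limits the precision.

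Differences were fitted in limma 3.58.1 (R 4.3.3) with an intensity trend and Benjamini-Hochberg adjustment over all 8585 genes, giving 4 residual and 5.78 prior degrees of freedom. A gene was called at an adjusted p below 0.05. The 1-week comparison and the difference between the times used the same genes. The code was tested on simulated data. Upstream sequences came from RefSeq (GRCh38.p14). The members of the comparison and the 43 gene lists were chosen with earlier results of these data known, and 3 of the lists come from the study's own tables on these arrays. Genes named are the 12 highest and 12 lowest called genes without overlap, up to 5 called members of each list, the genes of the study's PCR and the most different gene of a chromosome. The genes at the ends of chromosome stretches mark position only, and NKX2-2, STEAP1 and the markers named as low serve the check of the cell type. Alternatives were other floors, a started log, other scalings, filters and probe set rules, more arrays in the fit, no trend, array weights, a replicate block, the methods' t-test and leaving out each array.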

Additional observations from a re-analysis of the deposited data

Results flagged for a closer look

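The dose difference was tested for a change between the times on 12 rotenone arrays, and it differed for 936 genes in the direction of a higher value at 4 weeks than at 1 week and for 381 in the direction of a lower one (limma, adjusted p below 0.05). All of the 24 genes with the largest 4-week differences were among these, which their choice by a value that enters the test makes likely.

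For the genes lower with 50 nM at 4 weeks, the 4-week minus the 1-week dose difference on the log2 scale was -4.30 for HSPB8, -3.62 for GFRA2, -3.34 for ZIC1 and -3.56 for COL3A1. It was -3.23 for TNFAIP6, -3.11 for RPL39L, -2.81 for EPM2AIP1 and -2.80 for OLFML3, and -2.73 for FXYD6, -2.86 for FN1, -2.44 for RTN1 and -2.42 for L1TD1. At 1 week these 12 genes differed by -0.52 to -0.06 between the doses.

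For the genes higher with 50 nM at 4 weeks, it was 3.41 for AIF1, 3.07 for EPAS1, 2.95 for LOXL1 and 2.91 for MEOX1. It was 2.66 for MNX1, 2.59 for PRSS21, 2.76 for CHRDL1 and 2.40 for DCX, and 2.09 for LAMP5, 2.58 for ETFA, 2.36 for DUSP2 and 2.29 for THBS2. At 1 week these 12 genes differed by -0.20 to 0.42.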

How the results depend on the processing

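The 4-week counts of 713 higher and 713 lower genes (206 and 282 at least 2-fold) stayed within 1.5 times under floors of 1 and 32, quantile normalization, median scaling, a filter of 100, the mean of all probe sets, all 18 or the 12 rotenone arrays in the fit, and no trend. With log2(signal + 32) the 2-fold higher count was 134. With no filter, where all genes are tested, 322 were higher, 371 lower and 130 at least 2-fold higher. With every probe set by itself 1086 were lower and 436 at least 2-fold lower. With array weights 1797 were higher and 1580 lower. The methods' t-test at its unadjusted threshold gave 155 and 217 genes at least 2-fold different, and after Benjamini-Hochberg 0 and 0, where limma had 2563 genes at an unadjusted p below 0.05. Without chromosomes 3, 6 and 8, a choice made after seeing the data, 458 were higher, 468 lower and 173 at least 2-fold lower. Leaving out 1 array gave 290 to 1120 higher and 347 to 1045 lower genes. Except where fewer genes or arrays entered, the cause was not tested.

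At 1 week, the 11 higher and 211 lower genes became 0 and 0 with a floor of 32, 0 and 5 with quantile normalization and 1 and 7 with median scaling, and leaving out 1 array gave 0 to 34 and 0 to 558. The 936 genes whose dose difference was higher at 4 weeks ranged from 539 to 1321 when 1 array was left out, and the 381 lower ones from 257 to 547.

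At 4 weeks replicate numbers did not pair the arrays: the deviations of same-numbered 50 nM and 5 nM arrays correlated at -0.05, -0.13 and -0.26. These correlations were not taken at 1 week, so a pairing there was not tested. With the replicate block 427 genes were higher and 490 lower at 4 weeks, and 845 and 351 differed between the times. At 1 week the block gave 76 higher and 715 lower, against 11 and 211 without it.

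Of 171 named genes none that was called in the main fit reversed its direction under the alternatives in which named genes were followed. A change of sign in an uncalled gene was not counted, and the filter of 100 kept 162 of the 171. Calls of the named genes changed most after Benjamini-Hochberg on the methods' t-test (165 lost), with no filter (71) and without replicate 1 (44) or 2 (42) of 4w50 nM. A signal near 16 limits what can be seen, and a gene at that floor gives a lower bound.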

Other observations

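Genes outside the lists held the largest difference on several chromosomes. PRAME, an antigen of melanoma and other tumours, had 44.0, 31.7 and 54.4 in 4w50 nM, against 284, 329 and 319 in 4w5 nM (-2.87, SE 0.20, adjusted p = 6.01e-05). KRT12, a keratin of the cornea, had 87.2, 111 and 206 in 4w50 nM, against 852, 921 and 928 in 4w5 nM (-2.84, SE 0.27, adjusted p = 0.000204), and HS3ST2, which adds sulphate to heparan chains, had 35.8, 33.5 and 78.9 against 240, 351 and 369 (-2.79, SE 0.31, adjusted p = 0.000395). The flippase gene ATP9A had 22.2, 18.3 and 18.9 in 4w50 nM, against 109, 121 and 173 in 4w5 nM (-2.74, SE 0.20, adjusted p = 8.82e-05), whereas another flippase gene, ATP8A1, had 1118, 964 and 477 against 186, 122 and 203 (2.27, SE 0.31, adjusted p = 0.00117).

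Among the 14 genes of the study's PCR that were tested, 5 were higher and 3 lower, beside 8.31% of all genes in each direction. The study chose them among genes it had found changed against vehicle on these same arrays, which makes a larger share likely. SYNJ2, a lipid phosphatase of vesicle recycling, had 528, 414 and 285 in 4w50 nM, against 157, 105 and 88.1 in 4w5 nM (1.81, SE 0.26, adjusted p = 0.00153), and IFI16, a sensor of foreign DNA, was 1.75-fold higher, a call lost without replicate 1 or 2 of 4w50 nM or replicate 2 of 4w5 nM. APOE (0.72, adjusted p = 0.162), CLIC2 (-1.21, adjusted p = 0.0975) and DDIT3 did not pass the test, and their replicate 3 array at 50 nM was 211, 41.2 and 540, against 467, 161 and 1884 on replicate 1.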
